A study of Mus musculus with 18 samples.

Results

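The 44 genes described here act in the repair of DNA interstrand crosslinks and in homologous recombination, and were followed in bone marrow-derived macrophages (BMDMs) exposed to lipopolysaccharide (LPS) and to the crosslinking drug carboplatin. They were taken by name from a list of Fanconi anemia, homologous recombination and checkpoint genes, and all 44 were present among the 22852 gene symbols of the count tables. Of these, 43 passed the expression filter and entered the tests with 11305 genes in all. The exception was Rmi2, which had at most 7 reads in any sample.

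An interstrand crosslink ties both strands of DNA together and stops replication forks and transcription. The Fanconi core complex attaches ubiquitin to the FANCD2-FANCI pair at such a lesion, nucleases then unhook it, and the resulting break is repaired from the sister chromatid by BRCA proteins and the RAD51B, RAD51C, RAD51D, XRCC2 and XRCC3 group of paralogs. Many of these genes, but not all, are transcribed more in cells that prepare for or pass through S phase. Macrophages grown from bone marrow divide in culture until they mature or are activated, and LPS is a bacterial cell wall product that activates them through TLR4.

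RNA-Seq was carried out on 18 samples of C57BL/6 BMDMs, 3 biological replicates in each of 6 groups, and no group carried a genetic change. The bone marrow cells had been cultured for 7 days in medium with L929 cell supernatant. The groups were unstimulated BMDMs (Unstim), BMDMs given LPS at 10 ng/ml once (LPS10Control, 3 h), BMDMs primed with LPS at 100 ng/ml for 24 h (LPS100), and LPS-tolerant BMDMs, which were primed in the same way and then received 10 ng/ml for 3 h (Tol). According to the methods of the study, the priming medium was replaced with fresh medium at the second dose. Tol thus also differs from LPS100 by fresh medium and 3 h more of culture. In LPS100-Carbo25 and Tol-Carbo25, 25 µM carboplatin was added 1 h before priming according to the methods of the study, whereas the protocol text of the sample labels names LPS first. No group received carboplatin without LPS or LPS10Control with carboplatin, so that an effect of the drug in unprimed cells was not measured.

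Between 6869667 and 14708099 reads per sample were counted on genes, and a member with 10 reads in a sample therefore has a wide counting error. The macrophage markers were high in all samples, with a summed normalized count of 142000 to 304600 over 8 genes, Lyz2 being the most abundant. The defining markers of other cell types were at or near 0: Ly6g, Mpo, Cd3d, Cd3e, Cd3g, Pax5 and Hbb-bs had 0 reads in all 18 samples, and Ngp and Hba-a1 had 1 read in total each. The neutrophil list summed to 7.27 to 15.6 in Unstim and 84.3 to 438 in LPS100, led by S100a8, and the myeloid progenitor list to 16.4 to 43.97 and 1.06 to 3.75, led by Kit and Cd34. The stromal list, led by Dcn and Pecam1 after 24 h, summed to 2.46 to 6.36 in Unstim, 21.5 to 50.3 in LPS10Control and 60.3 to 83.5 in LPS100, and 3 of its 3 tested genes were called higher in LPS100. The T cell list, which was nearly all Lck, summed to 0.909 to 11.5 in Unstim and 21.7 to 47.7 in LPS10Control. The dendritic, B and erythroid lists summed to at most 17.3 in any sample. The part of these lists in the values of the members was not tested. A summed count of 16 proliferation markers, led by Mki67 and Top2a in Unstim, was 14410 to 26050 in Unstim, 9859 to 19880 in LPS10Control, 3874 to 6428 in LPS100, 3041 to 4213 in LPS100-Carbo25, 4123 to 7859 in Tol and 3883 to 5063 in Tol-Carbo25. In bulk samples, fewer dividing cells and less RNA per dividing cell cannot be told apart.

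RefSeq promoter windows (GRCm38.p6, 250 bases before to 50 after the start) were matched for 33 of the 44 members, and short letter strings were looked for on both strands, because many of the members fell together under LPS. Any of TTTCCCGC, TTTCGCGC, TTTGCCGC and TTTGGCGC, which resemble binding sites of E2F transcription factors, was found for 6 members (18.2%): Fancg, Bard1, Brca2, Rad51c, Rmi1 and Chek2. Such a string was found for 2.61% of all 27025 symbols with a window. These symbols include genes that were not expressed here, and the share among the tested genes alone was not computed. TTTGAA or TTCGAA, the cell cycle homology region, was found for 6 of the 33 members (18.2%) and 21.7% of all symbols, and CCAAT for 21 (63.6%) and 41.1%. No match of one kind overlapped a match of another in the member windows. The 4 E2F-type matches that lay upstream of the start with 26 bases on each side inside the window are shown, to let the shared letters be seen, 5′ to 3′ on the strand of the gene, with the match in capitals. They begin 209 bases before the start of Bard1 (chr1:71103148-71103207, minus strand), 52 before that of Fancg (chr4:43010320-43010379, minus strand), 152 before that of Chek2 (chr5:110839805-110839864, plus strand) and 168 before that of Brca2 (chr5:150522427-150522486, plus strand). In Chek2 and Brca2 the match is on the opposite strand of the gene and therefore reads GCGGGAAA.
Bard1: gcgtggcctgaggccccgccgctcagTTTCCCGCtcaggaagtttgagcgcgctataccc
Fancg: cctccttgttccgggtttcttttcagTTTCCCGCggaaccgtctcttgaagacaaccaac
Chek2: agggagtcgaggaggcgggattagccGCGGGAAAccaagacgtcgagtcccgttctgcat
Brca2: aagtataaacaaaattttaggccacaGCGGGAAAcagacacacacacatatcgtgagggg

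In unstimulated BMDMs, the normalized count per kb of exon differed widely between the members. Usp1, which removes ubiquitin from FANCD2, stood at 109 ± 5.49 (mean ± SD, n = 3), and Rad50, a subunit of the MRE11-RAD50-NBN complex that binds broken ends, at 108 ± 12.5, a difference smaller than their spread. Nbn (71.2 ± 13.3), Fance (58.2 ± 10.9), Neil3 (57.2 ± 19.3) and Uimc1 (54.4 ± 9.48) followed, and their values overlapped within the SD. At the low end were Chek1 (3.41 ± 1.35), Fancc (3.002 ± 0.490), Xrcc3 (2.84 ± 0.676) and Xrcc2 (1.44 ± 0.134), and Rmi2 was last with reads of 2, 0 and 0 in the 3 samples. Levels per kb rest on the exons of all annotated transcripts and may understate a gene with long rare isoforms.

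**Figure D1:**
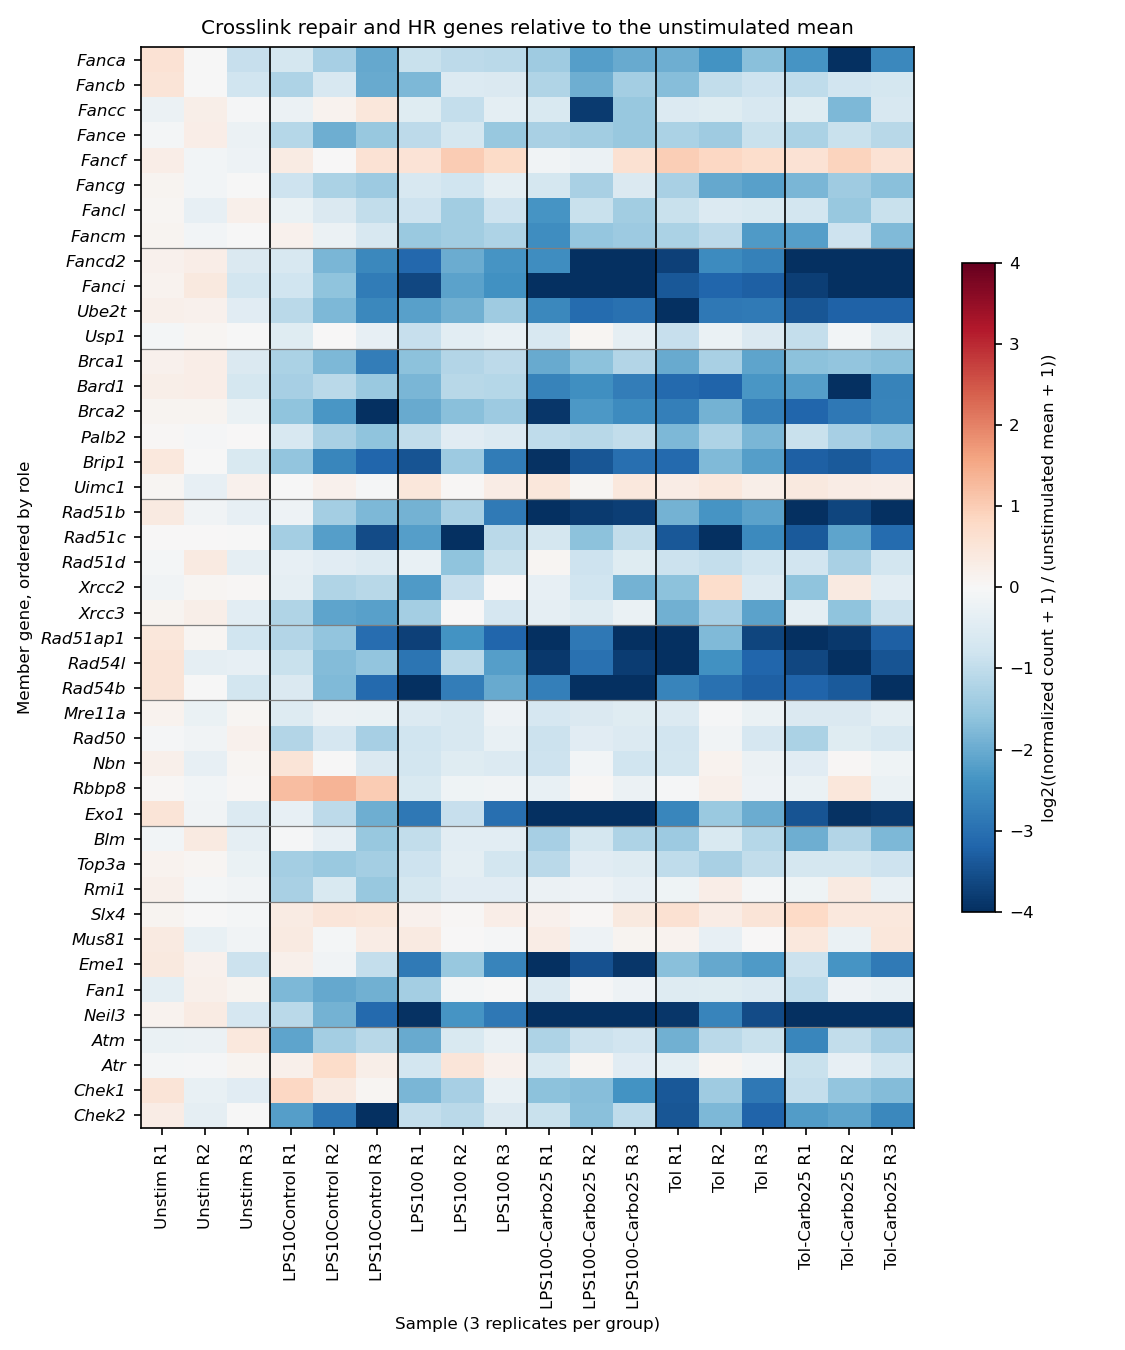
Heat map of 43 members (rows, grouped by role with grey lines) in 18 samples (columns, 3 replicates per group), colored by log2 of the normalized count + 1 relative to the unstimulated mean + 1, with colors saturated at -4 and 4. Neil3 and Fanci are blue in all samples with 24 h of LPS and darker blue with carboplatin, whereas Rbbp8 is red in LPS10Control. Rmi2 is left out because of its low counts.

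The first comparison asked what 24 h of LPS priming did to these genes. Of the 43 members tested, 19 were lower in LPS100 than in Unstim at an adjusted p under 0.05, against 13.1% of all genes tested, and none was higher, against 12.1%. The median log2FC of the members was -0.86, and that of all genes tested was -0.02. The genes that fell included both subunits of the ubiquitinated FANCD2-FANCI pair, BRCA1 and BRCA2 with partners, and all 3 genes of strand exchange, Rad51ap1, Rad54l and Rad54b. The kinases and the MRE11-RAD50-NBN complex did not pass the test in the fit by group. Since same-numbered samples varied together, a second fit was made that holds the replicate number as a blocking term. It called 28 members lower (19.8% of all genes) and 1 higher, Fancf (18.9%). The 9 further members were Fanca, Fancg, Usp1, Palb2, Rad51d, Mre11a, Rad50, Rmi1 and Atm, with log2FC from -1.01 to -0.45. In the fit by group, 1 member was higher and 28 were lower at an unadjusted p under 0.05 (16.9% and 19% of all genes). DESeq2 called 1 higher and 20 lower. For DESeq2, here and below, no share of all genes is given, and its counts cannot be set against other genes. Of the 16 proliferation markers, 14 also fell, and 16 with the block. Their median log2FC was -1.78, and their part in the values of the members was not tested.

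FANCD2 and FANCI are the clamp that is ubiquitinated at a crosslink, UBE2T is the ubiquitin-conjugating enzyme for it and USP1 the enzyme that removes the mark. Fanci (chr7:79041677-79100027, plus strand) had normalized counts of 170.2, 202 and 93.6 in Unstim and 11.6, 34.2 and 28.1 in LPS100 (log2FC = -2.65 ± 0.48, adjusted p = 5.03e-04, SE from the edgeR fit). Fancd2 (chr6:113508412-113573982, plus strand) had 166, 178 and 97.2 in Unstim and 15.9, 36.5 and 28.1 in LPS100 (log2FC = -2.45 ± 0.52, adjusted p = 0.00206). For both, each of the 3 primed samples was below each of the 3 unstimulated samples. Ube2t fell as well (log2FC = -1.84 ± 0.38, adjusted p = 0.00172). Usp1 had a log2FC of -0.52 ± 0.24 (adjusted p = 0.123), and with the block its adjusted p was 0.00364. The strand option of the counting is not given in the sources used here, so that reads of Fancd2, Fanci, Fanca, Fancb, Fancc, Fancf, Fancl, Brca2, Palb2, Xrcc3, Rad54l, Mre11a, Eme1, Rmi1 and Mus81 may include those of a gene on the opposite strand (for Fancd2, Fanci and Fancf, Emc3, Polg and Gas2), and Rad54b and Top3a overlap Fsbp and Shmt1 on the same strand.

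The Fanconi core complex is the ubiquitin ligase of the pathway, with FANCL as its catalytic subunit and FANCM as the DNA translocase that brings it to the lesion. Of its 8 members, 3 fell after 24 h. Fancm (log2FC = -1.38 ± 0.37, adjusted p = 0.0112) had 93.7, 81.1 and 87.2 in Unstim and 30.7, 33.0 and 36.6 in LPS100. Fance (log2FC = -1.07 ± 0.25, adjusted p = 0.00418), which links the complex to FANCD2, had 175, 225 and 158 and 89.96, 113 and 63.8. Neither gene overlapped between the groups. Fancl fell by 0.99 on the log2 scale (adjusted p = 0.0310), a call that only 1 of 6 fits leaving out a sample retained (adjusted p under 0.05 without Unstim replicate 2). Fanca, Fancb, Fancc and Fancg had log2FC between -1.01 and -0.60 without passing the test. Fancf, an adaptor subunit, had a log2FC of 0.81 ± 0.29 (adjusted p = 0.0518, with the block 0.0402), with 32.5, 24.6 and 22.7 in Unstim and 39.2, 54.7 and 46.0 in LPS100, without overlap.

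Of 6 BRCA proteins and partners, 4 fell. Brip1, a helicase that binds BRCA1, had 217, 159.8 and 105 in Unstim and 13.8, 58.1 and 22.5 in LPS100 (log2FC = -2.36 ± 0.50, adjusted p = 0.00188). Brca2, a mediator of strand exchange, had 125, 125 and 94.5 and 27.5, 35.3 and 41.3 (log2FC = -1.72 ± 0.46, adjusted p = 0.00963). In both, the highest primed sample was below the lowest unstimulated sample. Brca1 (log2FC = -1.26 ± 0.34, adjusted p = 0.0109) and its partner in the ubiquitin ligase, Bard1 (log2FC = -1.36 ± 0.44, adjusted p = 0.0305), had smaller log2FC. The call of Brca1 was lost without Unstim replicate 2 or LPS100 replicate 1, and that of Bard1 without any of 5 of the 6 samples, Unstim replicate 3 being the exception. Palb2, which joins BRCA1 and BRCA2, had a log2FC of -0.65 ± 0.26 (adjusted p = 0.0796, with the block 0.0478). Uimc1, the ubiquitin reader of the BRCA1-A complex, was at 519 ± 90.3 in Unstim and 626 ± 90.3 in LPS100 (log2FC = 0.27 ± 0.15, adjusted p = 0.225).

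The paralogs RAD51B, RAD51C, RAD51D, XRCC2 and XRCC3 help to form the nucleoprotein filament that searches for the intact copy, and RAD51AP1, RAD54L and RAD54B act with this filament during strand exchange. All 3 genes of the latter group fell. Rad51ap1 had 269, 204 and 113 in Unstim and 13.8, 36.5 and 20.6 in LPS100 (log2FC = -3.05 ± 0.67, adjusted p = 0.00248), the largest fall of the 43 members. Rad54b had 96.5, 67.2 and 40.0 and 2.12, 9.11 and 15.9 (log2FC = -2.87 ± 0.72, adjusted p = 0.00702), without overlap, and Rad54l had a log2FC of -1.91 ± 0.50 (adjusted p = 0.00891). Among the paralogs, Rad51c had 22.9, 22.9 and 22.7 in Unstim and 4.23, 0 and 10.3 in LPS100 (log2FC = -2.16 ± 0.75, adjusted p = 0.0432), and the call held only when LPS100 replicate 3 was left out, in 1 of 6 such fits. Rad51b (chr12:79343212-79861464, plus strand) had 34.4, 23.8 and 20.9 and 6.35, 10.2 and 2.81 (log2FC = -2.03 ± 0.57, adjusted p = 0.0137), and its call was lost without Unstim replicate 1 or without LPS100 replicate 3, when the log2FC remained between -2.51 and -1.65 over the 6 fits. In reads, Rad51b had 36, 29 and 23 in Unstim and 6, 9 and 3 in LPS100, and it passed the expression filter through Unstim, where it was highest. Rad51d (log2FC = -0.86 ± 0.32, adjusted p = 0.0590), Xrcc2 (log2FC = -0.83 ± 0.69, adjusted p = 0.429) and Xrcc3 (log2FC = -0.62 ± 0.49, adjusted p = 0.405) did not pass the test.

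Of 5 genes of end resection, which exposes single-stranded DNA at a break, 1 fell. Exo1, an exonuclease of long-range resection (chr1:175708143-175741055, plus strand), had 96.5, 60.6 and 45.4 in Unstim and 8.47, 35.3 and 7.502 in LPS100 (log2FC = -2.0 ± 0.58, adjusted p = 0.0170), and LPS100 replicate 2 stood above the other primed samples. Its call was lost without Unstim replicate 1, LPS100 replicate 1 or LPS100 replicate 3, with log2FC between -3.06 and -1.63 over the 6 fits. Nbn had 296, 204 and 276 and 156, 186 and 176 (log2FC = -0.58 ± 0.28, adjusted p = 0.145), while Mre11a (-0.45), Rad50 (-0.56) and Rbbp8 (-0.29), the partner that starts resection, had small negative log2FC that did not pass.

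In the dissolvasome, which takes apart double Holliday junctions, Top3a fell from 355, 342 and 265 to 182, 245 and 194 (log2FC = -0.63 ± 0.18, adjusted p = 0.0174), a call that held only without Unstim replicate 3 or LPS100 replicate 2 among 6 fits that left out a sample. The helicase gene Blm had 203, 286 and 173 in Unstim and 110.1, 165 and 166 in LPS100 (log2FC = -0.58 ± 0.34, adjusted p = 0.237), and these groups did not overlap. Rmi1 had a log2FC of -0.54 ± 0.23 (adjusted p = 0.0937, with the block 0.0218). Rmi2 was too low to test, with 7, 4 and 4 reads in LPS100, 2, 4 and 1 in LPS10Control, 2, 5 and 0 in Tol, 4, 0 and 2 in LPS100-Carbo25 and 2, 1 and 2 in Tol-Carbo25.

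The nucleases and glycosylase that unhook crosslinks or resolve joints divided into those that fell and those that did not pass. Neil3, the glycosylase that opens a crosslink without a break (chr8:54023531-54092100, minus strand), had 437, 498 and 244 in Unstim and 24.3, 76.3 and 53.5 in LPS100 (log2FC = -2.93 ± 0.54, adjusted p = 6.49e-04). Eme1, the partner of the nuclease MUS81, had 138, 117 and 56.4 and 13.8, 35.3 and 15.9 (log2FC = -2.26 ± 0.54, adjusted p = 0.00450). Neither overlapped. Slx4, the scaffold of these nucleases (0.15), Mus81 (0.13) and the nuclease gene Fan1 (-0.37) did not pass, with adjusted p of 0.515, 0.759 and 0.450.

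Of the checkpoint kinases, none passed in the fit by group at 24 h. Chek1, the kinase downstream of ATR, had 52.6, 29.5 and 26.4 in Unstim and 9.53, 13.7 and 29.1 in LPS100 (log2FC = -1.03 ± 0.50, adjusted p = 0.145), and these overlapped. Chek2, the kinase downstream of ATM, had 395, 251 and 313 and 165, 149 and 213 (log2FC = -0.86 ± 0.40, adjusted p = 0.130), without overlap. Atm (log2FC = -0.80 ± 0.42, adjusted p = 0.186, with the block 0.00649) and Atr (log2FC = 0.06 ± 0.27, adjusted p = 0.912) completed the role. Of the 43 members tested, 30 were lower in every primed than in every unstimulated sample, as were 21.3% of all genes tested, and 1, Fancf, was higher, as were 18.1%. Rmi2, which was not tested, was also higher in every primed sample.

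**Figure D2:**
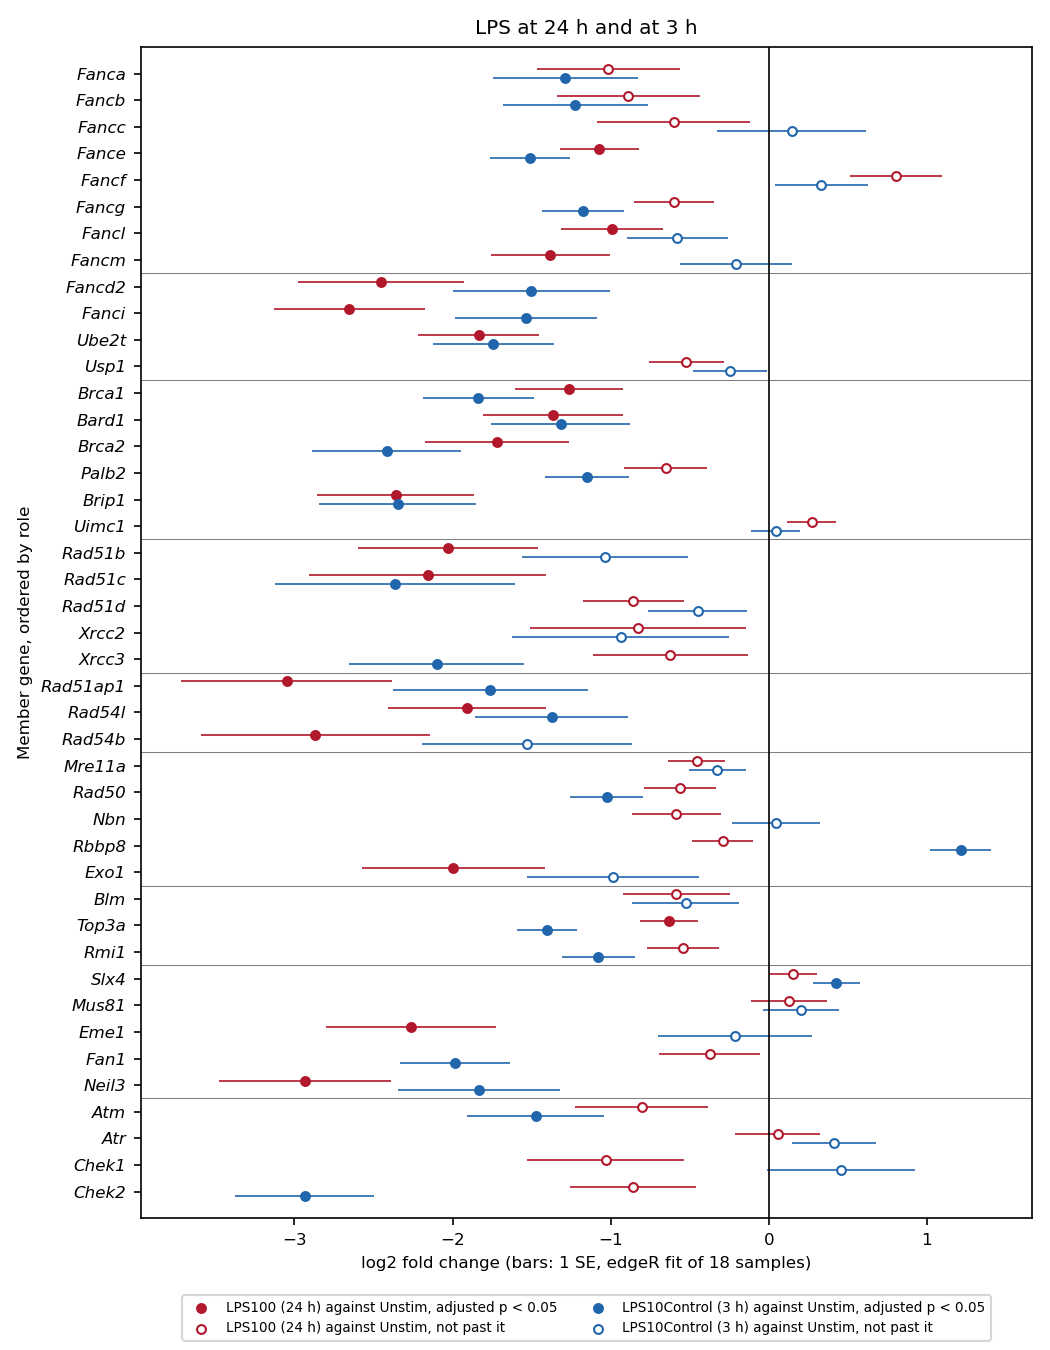
Log2 fold changes of 43 members against Unstim (x axis, bars 1 SE of the edgeR fit) for 24 h of LPS at 100 ng/ml (red) and 3 h at 10 ng/ml (blue), ordered by role, filled where the adjusted p was under 0.05. Most points lie left of 0, Rbbp8 and Slx4 are the filled points to the right at 3 h, and Chek2 and Fan1 lie much farther left at 3 h than at 24 h.

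The second comparison asked what a single short LPS dose did, and it shares the Unstim samples with the first. In LPS10Control, 23 of 43 members were lower than in Unstim, against 26.9% of all genes tested, and 2 were higher, Rbbp8 and Slx4, against 24.3%. The median log2FC of the members was -1.15 and that of all genes -0.09. Of the 16 proliferation markers, 6 were lower, and 8 with the block. Their median log2FC was -0.60, and their part was again not tested. With the block, Rad51b (0.0483) and Rad54b (0.0150) also had adjusted p values under 0.05. This made 25 of 43 members lower and 2 higher, while 3817 and 3331 of all 11305 genes tested were lower and higher with the block. Dose and time both differ between the groups, 10 ng/ml for 3 h and 100 ng/ml for 24 h, and cannot be told apart.

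Rbbp8, described in full after its values were seen, as were Slx4, Fan1, Rmi1, Fancf, Fancg and Palb2, encodes CtIP, which starts end resection together with the MRE11 complex. It had 483, 429 and 479 in Unstim, 1095, 1187 and 944 in LPS10Control and 304, 409 and 423 in LPS100, and the log2FC at 3 h was 1.21 ± 0.20 (adjusted p = 6.74e-05). All 3 singly stimulated samples lay above the other 15 samples. Slx4 had 246, 225 and 217 and 289, 318 and 318 (log2FC = 0.43 ± 0.15, adjusted p = 0.0254), but this call was lost when library size alone was used for scaling, which moved the median of all genes by -0.43, and in 4 of 6 fits that left out a sample. The other subunits of resection went different ways: Rad50 fell (log2FC = -1.02 ± 0.23, adjusted p = 0.00139), and Mre11a (-0.32), Nbn (0.05) and Exo1 (-0.98) did not pass. Nbn had 372, 257 and 174 and Exo1 had 53.7, 32.5 and 16.8 in LPS10Control.

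The kinase genes separated at 3 h. Chek2 fell to 68.0, 41.5 and 16.8 (log2FC = -2.94 ± 0.44, adjusted p = 3.30e-05), the largest fall of the members at this time, whereas Chek1 was 64.4, 46.4 and 38.5 (log2FC = 0.46 ± 0.47, adjusted p = 0.435) and overlapped with Unstim. Atm fell from 170.2, 174 and 274 to 46.5, 79.6 and 94.7 (log2FC = -1.47 ± 0.43, adjusted p = 0.00889) and Atr did not pass (log2FC = 0.41 ± 0.27, adjusted p = 0.208). Fan1 went from 52.6, 80.3 and 75.4 in Unstim to 19.1, 15.9 and 17.8 in LPS10Control (log2FC = -1.98 ± 0.35, adjusted p = 1.48e-04), and Eme1, which was low at 24 h, was 120.5, 94.8 and 53.2 at 3 h (log2FC = -0.21 ± 0.49, adjusted p = 0.737).

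BRCA proteins and partners fell in 5 of 6 cases. Brca2 was 37.0, 22.1 and 5.92 in LPS10Control (log2FC = -2.42 ± 0.47, adjusted p = 4.34e-04) and Brip1 53.7, 25.6 and 16.8 (log2FC = -2.35 ± 0.50, adjusted p = 8.40e-04). In each of the 2 genes replicate 1 was the highest and replicate 3 the lowest of the group. Fancd2, Fanci, Neil3, Rad51ap1 and Chek2 had the same order, and Top3a, Fan1 and Rmi1 did not. Brca1 (-1.84), Bard1 (-1.32) and Palb2 (-1.15) fell, and Uimc1 did not pass (log2FC = 0.04 ± 0.15, adjusted p = 0.827). The 6 members with an E2F-type string in the promoter window all fell at 3 h, with a median log2FC of -1.84, and 14 of the 27 without one fell, with a median of -1.15. At 24 h these counts were 3 of 6 and 12 of 27. These are counts over few genes and no test was made of them.

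In the core complex, 4 of 8 members fell at 3 h: Fance, to 84.7, 47.7 and 65.1 (log2FC = -1.51 ± 0.26, adjusted p = 1.11e-04), Fancg (log2FC = -1.17 ± 0.26, adjusted p = 0.00123), Fanca (-1.29) and Fancb (-1.22). The calls of Fanca and Fancb were each kept in 2 of 6 fits that left out a sample. Fancm, low at 24 h, was 99.0, 73.3 and 55.2 at 3 h (log2FC = -0.21 ± 0.36, adjusted p = 0.653) and overlapped with Unstim, and Fancc, Fancf and Fancl did not pass. Fancd2 was 93.1, 40.8 and 23.7 (log2FC = -1.50 ± 0.50, adjusted p = 0.0182), Fanci 89.5, 50.5 and 21.7 (log2FC = -1.54 ± 0.45, adjusted p = 0.00876), and Ube2t also fell (-1.74).

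In the other roles, Neil3 was 184, 104 and 44.4 in LPS10Control (log2FC = -1.83 ± 0.51, adjusted p = 0.00675), Top3a 124, 115 and 125 (log2FC = -1.40 ± 0.19, adjusted p = 1.13e-05) and Blm 211, 174 and 75.9 (log2FC = -0.52 ± 0.34, adjusted p = 0.207). Top3a was lower in each of the 3 samples than in any Unstim or LPS100 sample. Rmi1 fell by 1.08 on the log2 scale (adjusted p = 9.19e-04). Rad51c was 8.35, 4.15 and 0.986 (log2FC = -2.36 ± 0.76, adjusted p = 0.0154) and Rad51b 22.7, 9.69 and 6.90 (log2FC = -1.04 ± 0.53, adjusted p = 0.110). Rad51ap1 was 85.9, 64.3 and 22.7 (log2FC = -1.76 ± 0.62, adjusted p = 0.0245), Rad54b 45.3, 19.4 and 6.90 (log2FC = -1.53 ± 0.66, adjusted p = 0.0629), and Rad54l (-1.37) and Xrcc3 (-2.10) also fell. Xrcc3 had 14, 18 and 10 reads in Unstim and 4, 3 and 2 in LPS10Control, and passed the expression filter through Unstim. In fits that left out a sample, the calls of Fancd2 and Rad51ap1 were lost without LPS10Control replicate 2 or 3 or Unstim replicate 1 or 2, those of Rad54l without LPS10Control replicate 2 or 3 or Unstim replicate 1, of Bard1 without LPS10Control replicate 3 or Unstim replicate 1 or 2, and of Rad51c without LPS10Control replicate 2 or 3.

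The third question was how primed cells changed with the second dose of LPS, from Tol against LPS100. The dose cannot be told apart from the fresh medium and the 3 h more of culture in Tol. Of 43 members, 3 were lower, against 2.71% of all genes tested, and 0 were higher, against 3.6%. The 3 were Chek2, Fancg and Palb2. At an unadjusted p under 0.05 in edgeR, 9 were lower and 2 higher (10.4% and 10.7% of all genes). DESeq2 called 4 lower and 0 higher, without a share of all genes to set beside them. Chek2 was 165, 149 and 213 in LPS100 and 29.1, 91.5 and 34.0 in Tol (log2FC = -1.74 ± 0.42, adjusted p = 0.0209). Fancg was 112, 101 and 134 and 70.9, 41.5 and 38.1 (log2FC = -1.22 ± 0.27, adjusted p = 0.0114), and Palb2 64.6, 93.4 and 89.1 and 36.7, 54.4 and 36.0 (log2FC = -0.95 ± 0.27, adjusted p = 0.0487). None of the 3 overlapped between the groups. In all, 7 members and 13.6% of all genes tested were lower without overlap, and 2 members and 12.6% were higher. All 3 calls were lost without LPS100 replicate 3 and also without Tol replicate 3. With the block, Ube2t and Bard1 were lower too (5 in all, 8.32% of all genes) and Rmi1 was higher (9.67%), with adjusted p = 0.0369, 0.0415 and 0.0398. One of the 16 proliferation markers rose and none fell.

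A further 12 members with values in every sample did not pass the test between Tol and LPS100. In Fancm, Fance, Brip1 and Brca2, the groups overlapped. Fancm was 35.5, 41.5 and 17.5, Fance 77.2, 69.1 and 99.9 and Brip1 17.7, 46.6 and 34.0 in Tol. Brca2 was 16.5, 30.2 and 16.5, Rad51ap1 11.4, 57.0 and 14.4 and Rad54b 10.1, 7.77 and 6.18. Rad51c was 1.27, 0 and 3.09, so that replicate 2 had no reads in Tol as in LPS100. Of the end-binding and dissolvasome genes, Top3a alone was lower in each Tol than in each LPS100 sample. Nbn was 154, 283 and 221, Top3a 157, 129.5 and 162 and Blm 79.8, 143 and 99.9. Eme1 was 31.6, 24.2 and 20.6 and Chek1 2.53, 12.9 and 4.12. The 2 lowest Chek1 values of all 18 samples were in Tol.

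Whether the response to 3 h of LPS differed between primed and unprimed cells was tested as the difference of both responses, a contrast chosen after the data had been seen. The primed response also includes the change to fresh medium. The contrast called 7 of 43 members, a smaller share than the 23.8% of all genes tested. Unprimed cells lowered Fan1, Brip1, Rmi1, Fance, Rad50 and Top3a, while the log2FC of these genes with the second dose in primed cells lay between -0.47 and 0.57. Rbbp8 rose in unprimed cells and was 447, 535 and 404 in Tol (log2FC = 0.29 ± 0.20, adjusted p = 0.435). With the block, Brca1, Brca2, Rad51ap1 and Atm were called in addition (11 in all, 36.2%), with adjusted p = 0.0343, 0.0417, 0.0448 and 0.0176. Chek2 and Fancg, which fell in both settings, had differences of 1.19 ± 0.59 (adjusted p = 0.169) and -0.05 ± 0.36 (adjusted p = 0.944). Chek1 had a difference of -1.80 ± 0.73 (adjusted p = 0.0888, with the block 0.0558), which did not pass.

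**Figure D3:**
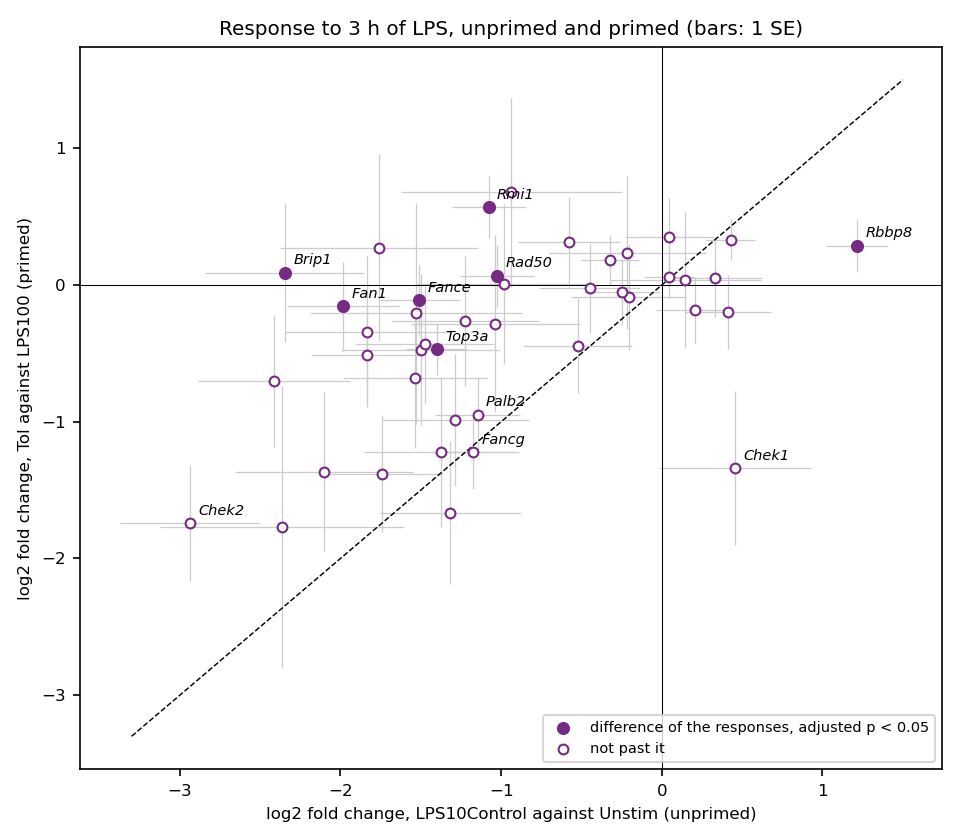
Log2 fold changes of 43 members after 3 h of LPS at 10 ng/ml in unprimed cells (x axis, LPS10Control against Unstim) and in primed cells (y axis, Tol against LPS100), bars 1 SE, with equal responses on the dashed line. The 7 filled points are members whose responses differed at an adjusted p under 0.05: 6 lie left of and above the line near 0 on the y axis, and Rbbp8 lies to the right.

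Tolerant cells were next compared with singly stimulated cells, which received the same last dose. In Tol, 10 of 43 members were lower than in LPS10Control, against 18.3% of all genes tested, and 2 were higher, Fan1 and Rmi1, against 16.2%. The 10 were Chek1, Rbbp8, Fanci, Fancd2, Ube2t, Fancm, Bard1, Rad54l, Eme1 and Neil3. Chek1 had the largest fall, from 64.4, 46.4 and 38.5 to 2.53, 12.9 and 4.12 (log2FC = -2.83 ± 0.54, adjusted p = 6.39e-04), and Rbbp8 fell by 1.22 on the log2 scale (adjusted p = 1.27e-04). Both remained called in each of the 6 fits that left out a sample. The calls of Fancd2 and Neil3 were kept in 1 and 2 of these fits, those of Bard1 and Rad54l in 3, of Fancm and Ube2t in 4 and of Fanci and Eme1 in 5, and without LPS10Control replicate 1 the members called fell to 6 and without Tol replicate 3 to 7. Fan1 was 48.1, 49.2 and 47.4 in Tol (log2FC = 1.46 ± 0.35, adjusted p = 0.00359) and Rmi1 224, 307 and 239.9 against 103, 165 and 88.7 (log2FC = 1.10 ± 0.23, adjusted p = 0.00126). With the block, Fancg (0.0376), Usp1 (0.0490), Atr (0.0166) and Rad50 (0.0196) passed as well, Rad50 in the higher direction. This made 13 of 43 members lower and 3 higher, while 2792 and 2588 of all 11305 genes tested were lower and higher with the block. Of the proliferation markers, 10 of 16 were lower in Tol (11 with the block).

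The last question was what carboplatin did to these genes in primed and in tolerant cells. In either state alone, edgeR called no member at an adjusted p under 0.05, against 0.372% of all genes called lower in primed cells and 0.407% in tolerant cells. At an unadjusted p under 0.05, 10 members were lower and none higher in primed cells, where 4.87% of all genes were lower and 2% higher. In tolerant cells, 5 were lower and none higher, where 4.33% of all genes were lower and 2.4% higher. DESeq2 called 3 members lower in primed and 1 in tolerant cells, without a share of all genes to set beside them. Under the limits of the study, a log2FC below -2 with an adjusted p under 0.25, applied here to the edgeR fit, Neil3, Exo1 and Fanci were lower in primed cells (0.257% of all genes) and Neil3 and Rad51b in tolerant cells (0.336%). The lists of the study, made with DESeq2, hold Exo1 in primed and Rad51b in tolerant cells, but not Neil3 or Fanci. With the block, Neil3, Exo1 and Fanci were called in primed cells at an adjusted p under 0.05 (1.53%) and none in tolerant cells (1.43%). The median log2FC of the members was -0.39 in primed and -0.05 in tolerant cells, and those of all genes were both 0.01.

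In the average of both states, with 6 samples against 6, 4 members were lower, against 1.88% of all genes tested, and none was higher. They were Rad51b, Exo1, Neil3 and Fanci, and with the block Fancd2 was added (5 members, 4.48% of all genes). At an unadjusted p under 0.05 in edgeR, 11 members were lower and none higher, as were 7.47% and 4.39% of all genes. DESeq2 called 5 lower and none higher, again without a share of all genes. With limma-voom, Exo1, Neil3 and Fanci no longer passed and 1 member, Rad51b, was called. The difference between the carboplatin effects in tolerant and primed cells was called for 0 members and 0% of all genes, and for none by DESeq2. At an unadjusted p under 0.05 in edgeR, 2 members were higher and none lower, as were 0.805% and 0.354% of all genes. Of 16 proliferation markers, 5 also fell in the average, and 7 with the block. Their median log2FC was -0.79, and their part in the values of the members was not tested.

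Neil3 had 24.3, 76.3 and 53.5 in LPS100 and 5.40, 9.40 and 8.05 in LPS100-Carbo25, and 25.3, 62.2 and 31.9 in Tol and 0, 10.2 and 8.27 in Tol-Carbo25. The samples with carboplatin were below all samples without it in both states, and the average log2FC was -2.66 ± 0.48 (adjusted p = 0.00566). In reads, this was 22 against 147 in primed and 18 against 123 in tolerant cells, or 6.47-fold lower (95% exact binomial interval 4.12 to 10.6) and 6.39-fold lower (95% exact binomial interval 3.88 to 11.1), where the intervals cover counting error only. The call remained in each of the 12 fits that left out a sample. In primed cells, 10 members and 7.68% of all genes tested were lower without overlap, and 1 member and 5.2% were higher. In tolerant cells, 6 members and 6.12% of all genes were lower in this way, and 1 member and 5.25% were higher.

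Exo1 had 8.47, 35.3 and 7.502 in LPS100 and 2.70, 1.88 and 0 in LPS100-Carbo25, and 10.1, 23.3 and 16.5 in Tol and 5.25, 3.42 and 3.67 in Tol-Carbo25, again without overlap in either state (log2FC = -2.73 ± 0.56, adjusted p = 0.0137). The highest value was LPS100 replicate 2, and the call remained without it and in the other 11 fits that left out a sample. Rad51b had 6.35, 10.2 and 2.81 in LPS100 and 0, 0.940 and 1.01 in LPS100-Carbo25, and 6.33, 4.32 and 5.15 in Tol and 0, 1.14 and 0 in Tol-Carbo25. These rest on 18 reads against 2 in primed cells, 8.72-fold lower (95% exact binomial interval 2.09 to 77.5), and on 15 against 1 in tolerant cells, 14.03-fold lower (95% exact binomial interval 2.16 to 590.4). The average log2FC was -3.20 ± 0.67 (adjusted p = 0.0161), and the call was lost without LPS100 replicate 2, when the count of members called fell to 2.

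Fanci had 11.6, 34.2 and 28.1 in LPS100 and 5.40, 4.70 and 3.02 in LPS100-Carbo25, and 13.9, 16.4 and 15.4 in Tol and 10.5, 3.42 and 4.59 in Tol-Carbo25 (log2FC = -1.91 ± 0.43, adjusted p = 0.0272, with the block 0.00792). No sample with carboplatin reached one without it in its own state, but only 3 of 12 fits that left out a sample retained the call, with log2FC between -2.18 and -1.76. Fancd2 had 15.9, 36.5 and 28.1 and 25.7, 6.58 and 6.04 in primed cells, where LPS100-Carbo25 replicate 1 overlapped with LPS100, and 10.1, 25.0 and 21.6 and 5.25, 5.69 and 5.51 in tolerant cells, where the groups were apart. Its average log2FC was -1.46 ± 0.44 (adjusted p = 0.121, with the block 0.0415).

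**Figure D4:**
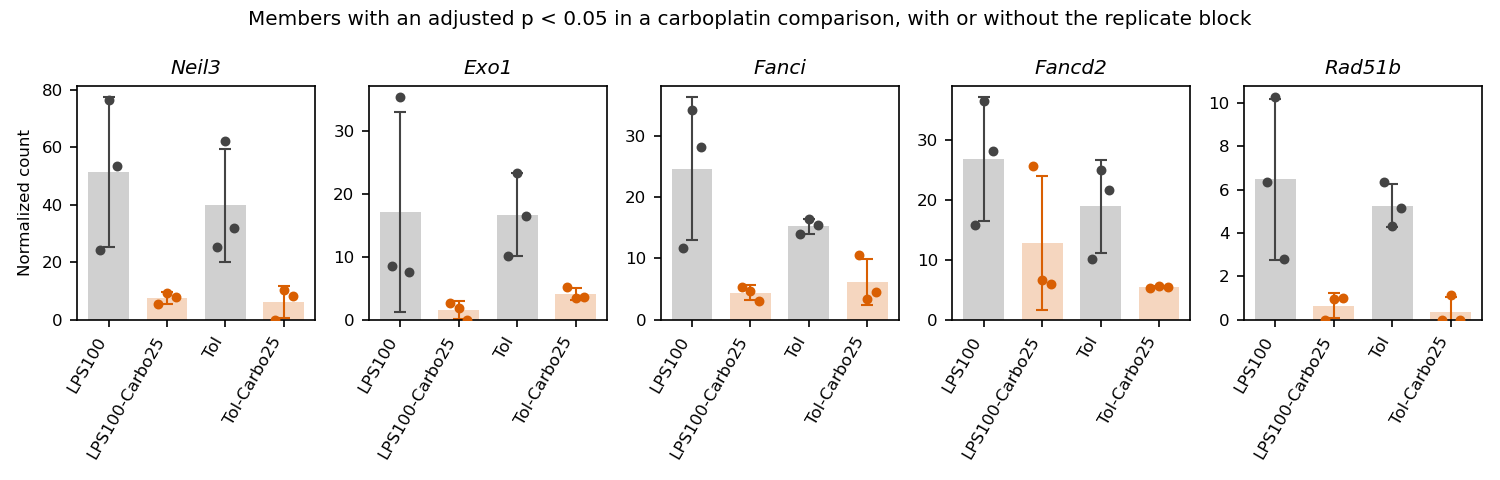
Normalized counts of Neil3, Exo1, Fanci, Fancd2 and Rad51b in the 4 primed groups (points are samples, bars the mean and error bars 1 SD, n = 3, orange with carboplatin). In all panels the carboplatin samples lie below the samples without the drug of the same state, except for 1 LPS100-Carbo25 sample of Fancd2.

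The further members gave no call in any of the carboplatin comparisons, by either fit. Brip1 was 9.45, 14.1 and 19.1 in LPS100-Carbo25 and 15.7, 14.8 and 17.5 in Tol-Carbo25 (average log2FC = -1.08 ± 0.38, adjusted p = 0.227), and Brca2 6.75, 22.6 and 19.1 and 11.8, 14.8 and 17.5 (average log2FC = -0.79 ± 0.36, adjusted p = 0.385). Rad51ap1 was 4.05, 26.3 and 8.05 and 5.25, 12.5 and 19.3, Rad54b 9.45, 0.940 and 2.01 and 6.56, 5.69 and 0.919, and both overlapped with the samples without the drug in both states. Rad54l had an average of -1.29 ± 0.43 (adjusted p = 0.170). Rad51c was 13.5, 6.58 and 11.1 in LPS100-Carbo25 and 1.31, 4.55 and 1.84 in Tol-Carbo25, with an average of 0.92 ± 0.70 (adjusted p = 0.700).

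Eme1 was 1.35, 8.46 and 6.04 in LPS100-Carbo25, below all LPS100 samples, but 56.4, 19.4 and 13.8 in Tol-Carbo25, on both sides of those of Tol, and Chek1 was 10.8, 10.3 and 6.04 and 18.4, 11.4 and 10.1. These were the 2 members with an unadjusted p under 0.05 for the difference between states, 2.13 ± 0.87 and 1.88 ± 0.80 on the log2 scale, and neither passed the adjusted test. Fancm was 14.9, 29.1 and 31.2 and 18.4, 49.0 and 24.8, Fance 75.6, 70.5 and 64.4 and 77.4, 100.2 and 85.5. Nbn was 144, 238 and 149.9 and 188, 269.8 and 232, Blm 86.4, 136 and 93.6 and 56.4, 97.9 and 62.5. Top3a was 153, 234 and 223 and 195, 197 and 179, and Chek2 172, 99.6 and 156 and 66.9, 74.0 and 52.4. For Rbbp8, Chek2, Palb2, Fancg, Uimc1, Nbn, Slx4 and Rad50, the average log2FC lay between -0.16 and 0.08.

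Carboplatin values were also set beside the genomic span of the genes (GRCm39, GENCODE vM39), as a description without a test. Over the 43 members, Spearman's rho between span and average log2FC was -0.41, and over 11022 tested genes with a span it was -0.25. These are correlations across genes, which are not independent replicates and share the same 12 libraries. Among all tested genes the median log2FC was 0.04 for spans under 10 kb, 0.02 for 30 to 60 kb, -0.17 for 100 to 200 kb, -0.61 for 200 to 500 kb and -1.11 above 500 kb. Rad51b spans 518 kb and was the only member above 500 kb, and Fancc, with 212 kb, had -0.65 ± 0.36. The members between 30 and 60 kb, which include Exo1 (32.9 kb) and Fanci (58.4 kb), had a median of -0.50 over 12 genes, and the 8 members of 60 to 100 kb, which include Neil3 (68.6 kb) and Fancd2 (65.6 kb), -0.48. Of the 4 members of 100 to 200 kb, Brip1 (144 kb) was at -1.08, Rbbp8 (112 kb) at 0.08, Xrcc2 (109 kb) at -0.18 and Atm (100.1 kb) at -0.19.

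**Figure D5:**
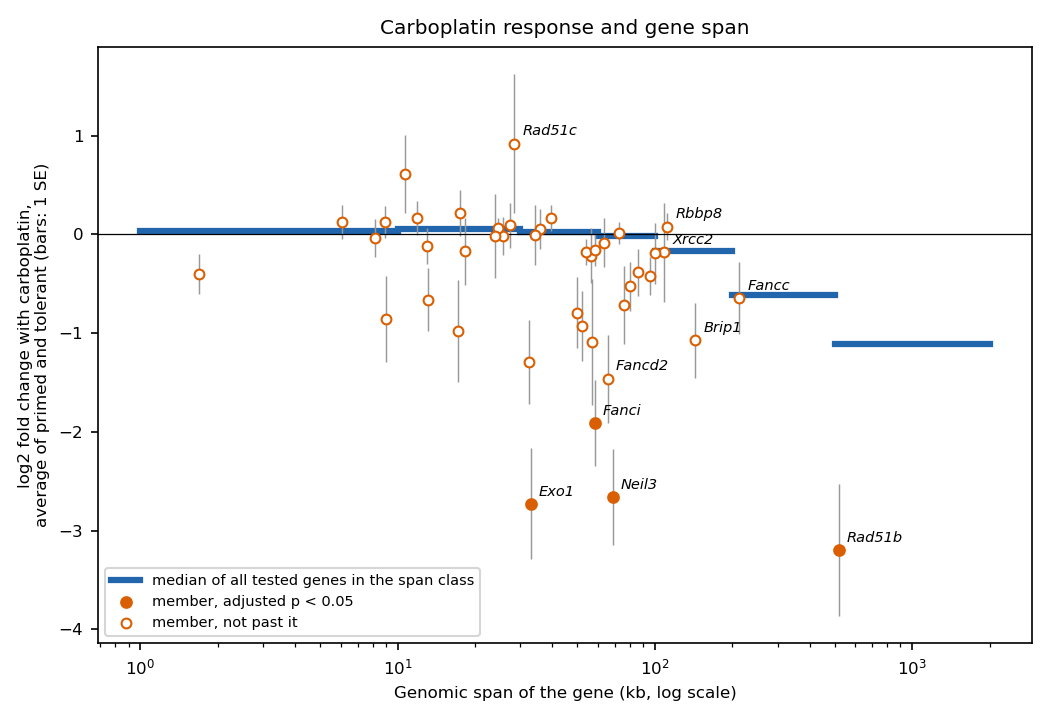
Average log2 fold change with carboplatin (y axis, bars 1 SE) against genomic span in kb (x axis, log scale) for 43 members, filled where the adjusted p was under 0.05, with blue lines at the median of all tested genes in 7 span classes. Rad51b lies at the far right below the line of its class, while Exo1, Neil3 and Fanci lie 1.9 to 2.7 log2 units below 0 at spans where the median of all genes is near 0.

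A list of 71 other genes of crosslink repair and recombination was available, of which 68 were tested. In LPS100 against Unstim, 19 fell and 2 rose (23 and 3 with the block), against 13.1% and 12.1% of all genes, with a median log2FC of -0.15. H2ax, the histone marked at breaks, went from 361 ± 152 in Unstim to 70.4 ± 12.8 in LPS100 (log2FC = -2.36 ± 0.28, adjusted p = 6.78e-06), and Clspn, the mediator of CHEK1 activation, from 343 ± 164 to 86.6 ± 38.8 (log2FC = -1.99 ± 0.43, adjusted p = 0.00209). The 2 that rose were Spidr, a scaffold of recombination (263 ± 23.6 to 508 ± 77.4, log2FC = 0.95 ± 0.17, adjusted p = 4.78e-04), and Slx4ip, a partner of SLX4 (30.5 ± 4.82 to 118 ± 34.1, log2FC = 1.94 ± 0.45, adjusted p = 0.00352). At 3 h, 22 of the 68 fell and 8 rose (31 and 11 with the block), against 26.9% and 24.3% of all genes. With the block, 3817 of all 11305 genes tested fell and 3331 rose. In the carboplatin average none rose in the fit by group, and Babam2 and Spidr had the smallest p values of those that fell. With the block, 7 were lower and 2, Mad2l2 and Rfwd3, were higher, while 507 and 198 of all 11305 genes tested were lower and higher.

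Babam2, a subunit of the BRCA1-A complex whose gene spans 388 kb, was at 534 ± 45.9 in LPS100 and 211 ± 21.8 in LPS100-Carbo25, and at 531 ± 33.4 in Tol and 194 ± 12.5 in Tol-Carbo25 (log2FC = -1.40 ± 0.11, adjusted p = 2.02e-06). Spidr, with 258 kb, was at 508 ± 77.4 and 331 ± 36.5 in primed cells and 432 ± 48.2 and 260.1 ± 40.2 in tolerant cells (log2FC = -0.67 ± 0.12, adjusted p = 0.00482). Mad2l2 (log2FC = 0.52 ± 0.16, adjusted p = 0.122) and Rfwd3 (log2FC = 0.34 ± 0.12, adjusted p = 0.200) had the smallest p values in the higher direction and did not pass in the fit by group, but did with the block (adjusted p = 0.0443 and 0.0316). Uimc1, the member that belongs to the same BRCA1-A complex as Babam2, had an average of 0.02 ± 0.11 (adjusted p = 0.986).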

How the data were processed

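RNA-Seq counts of 18 BMDM samples were used. Per the methods of the study and the labels, mRNA libraries were prepared with a stranded kit, sequenced as read pairs, aligned to GRCm39 with HISAT2 and counted with HTSeq. The deposited values are raw counts per gene symbol made by the authors, without normalization; program versions, annotation and strand option are not given in the sources used here. Between 6869667 and 14708099 reads per sample fell on genes (median 8986463), and rows naming no gene, with 41.5% to 46.9% of all reads, were left out. The study calls the replicates biological. The 3 h of LPS10Control are taken from the scheme of the experiment given by the study, not from the labels.

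Groups were taken from the labels and compared with edgeR 4.0.16 in R 4.3.3, with TMM scaling, the default filterByExpr filter (10 counts, 15 in total), which kept 11305 genes, and the quasi-likelihood F test in 1 fit of all 18 samples. A call is a Benjamini-Hochberg adjusted p under 0.05 over all tested genes. The SE of a log2FC (prior count 0.125) is its absolute value divided by the square root of F, and a normalized count is the count over the TMM-adjusted library size, times the mean of these sizes. The script was tested on simulated data. DESeq2 1.42.0 and limma 3.58.1 served as alternatives, beside other scalings, filters, samples and limits. Each sample was left out in turn in the fit by group, without the replicate block.

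Replicate numbers come from the labels. After removal of group means, same-numbered samples correlated in every pair of each comparison between 2 groups, with mean r from 0.28 to 0.51, so that the numbers were taken as pairs and the fit with the replicate block is given where it changes the call of a member or the count of a list that is printed. Over all groups, 44 of 45 same-numbered pairs had r over 0.1.

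The members and lists were chosen with earlier results of these data known. Every member is named at least once. Values in every sample are given for members called in a carboplatin contrast, for the 2 members of each role with the largest absolute log2FC in LPS100 against Unstim, and for members that no filter passed. Of the other pathway genes, the 2 with the smallest p in each direction are named. The contrast of both 3 h responses was added after the data were seen. Marker lists covered proliferation, macrophages, neutrophils, myeloid progenitors, dendritic, B, T, erythroid and stromal cells. Levels per kb and spans use GENCODE vM39 exons on GRCm39, and promoter windows of 300 bases are those of RefSeq. No RefSeq window was matched for Rad50, Fancd2, Xrcc2, Rmi2, Usp1, Rbbp8, Top3a, Rad54b, Rad51d, Nbn and Exo1. Results of some items are not reported here.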

Additional observations from a re-analysis of the deposited data

Results flagged for a closer look

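The responses to 3 h of LPS at 10 ng/ml differed between primed and unprimed cells for 7 of 43 members. This was a smaller share than the 23.8% of all genes tested, so that the difference was not particular to the members. In primed cells the dose came with fresh medium. The test was the edgeR test of the difference with Benjamini-Hochberg adjustment. The difference, the response of primed minus that of unprimed cells, was 2.44 on the log2 scale for Brip1 (adjusted p = 0.0182), 1.83 for Fan1 (adjusted p = 0.00912), 1.65 for Rmi1 (adjusted p = 0.00119), 1.40 for Fance (adjusted p = 0.00891), 1.09 for Rad50 (adjusted p = 0.0206) and 0.93 for Top3a (adjusted p = 0.0164). All 6 fell in unprimed cells. Rbbp8 had a difference of -0.93 (adjusted p = 0.0206) and rose in unprimed cells. All 7 members already had a lower mean in LPS100 than in Unstim (Brip1 31.5 against 161). The part of these starting levels in the differences was not tested. Fance, Top3a, Rmi1 and Fan1 remained called in each of 12 fits that left out a sample, Brip1 was lost without Tol replicate 2, and Rad50 and Rbbp8 remained in 8 and 9 of the 12. With library size alone as the scaling, which moved the median difference of all genes to 0.30, Rbbp8 did not pass (log2 difference -0.69).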

How the results depend on the processing

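No log2FC that passed the test changed sign under any alternative. Members called in LPS100 against Unstim numbered 29 with library size alone, 29 with the replicate block and 9 under the limits of the study, and 14 to 17 when a sample was left out. In LPS10Control against Unstim, 5 passed the limits of the study. Without a sample, 17 (without LPS10Control replicate 3) to 26 (without LPS10Control replicate 1) were called. In Tol against LPS10Control, 7 were called with at least 10 counts in every sample and 1 under the limits of the study, and 6 to 12 without a sample. In Tol against LPS100, 5 were called with library size alone, 6 with the replicate block, 1 in a fit of only the samples compared and 0 under the limits of the study, and 0 to 3 without a sample. In primed cells, carboplatin gave 3 members by DESeq2, with the replicate block, under the limits of the study and at an adjusted p under 0.25, and 8 with the block at that p. In tolerant cells these were 1 by DESeq2, 2 under the limits of the study, 2 at an adjusted p under 0.25 and 5 with the block at that p. The carboplatin average gave 0 with at least 10 counts in every sample, a filter that Rad51b, Exo1, Neil3 and Fanci did not pass, 1 with limma-voom, 7 at an adjusted p under 0.25, 12 with the block at that p, and 2 to 4 without a sample. The difference of the 3 h responses gave 11 with the block, 1 under the limits of the study and 6 to 10 without a sample. Apart from the filter, the cause of these changes was not tested. No share of all genes is given beside these counts. They therefore do not show whether the members changed more often than other genes. The replicate block changed no call of a member other than those given beside the results. Library size alone moved the median log2FC of all genes to -0.26 in LPS100 against Unstim, -0.43 in LPS10Control against Unstim, -0.11 in Tol against LPS100 and 0.30 in the difference of the 3 h responses.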
